A study of Mus musculus with 6 samples.

Results

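The genes described here carry signals of oncostatin M, interleukin 6 and related cytokines into the cell: the receptor subunits Osmr, Lifr, Il6st and Il6ra, the kinases Jak1 and Jak2, the transcription factor Stat3, and the feedback inhibitors Socs2 and Socs3. They were taken by gene symbol from count tables of sorted mouse muscle stem cells, by a rule that names the symbols and uses no measured value, although the set was proposed with earlier results of these data known. These are 9 of 49652 genes in the tables. Each of the 9 passed the filter on low counts, which left 18832 genes for testing, although Il6ra had 1 count in its lowest library.

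The series asks how gene expression in muscle stem cells differs when Opa1, which encodes a GTPase that fuses the inner mitochondrial membrane, is deleted. The KO group (n = 3 libraries) comes from Cre-positive mice of the OPA1-Pax7-CreERT2 line and the WT group (n = 3 libraries) from Cre-negative mice of the same line. All mice were 8 to 10 weeks old and uninjured, were gavaged with tamoxifen on 5 days, and gave hindlimb muscle 3 days afterwards. Cells were sorted as positive for alpha-7 integrin and VCAM and negative for Sca1, CD45 and CD31, and total RNA was sequenced in bulk. CreERT2 is driven by Pax7, which is active in muscle stem cells, and becomes active with tamoxifen. Both groups received tamoxifen, and only KO mice had Cre, so Opa1 loss and the presence of Cre cannot be told apart. The labels do not give the number of animals behind a library, so p-values measure only the spread between these libraries, which may be partly technical.

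Cytokines of this family bind a receptor that contains gp130, the product of Il6st, together with a partner such as the oncostatin M receptor, the leukaemia inhibitory factor receptor or the IL-6 receptor alpha chain. JAK kinases attached to the receptor then phosphorylate STAT3, which enters the nucleus and switches on target genes, among them Socs3, whose product binds gp130 and JAK and shuts the signal off. In muscle stem cells, oncostatin M is known as a signal that holds cells quiescent, and JAK and STAT3 signalling has been linked to the choice between self-renewal and differentiation.

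Total gene counts lay between 41410136 and 56591699 in KO libraries and between 48329905 and 56606886 in WT libraries. Opa1 stood at 17.5, 34.4 and 27.1 CPM (read counts scaled to library size, with TMM factors) in KO replicates 1 to 3, against 68.2, 31.4 and 68.8 CPM in WT replicates 1 to 3. The second of the WT libraries lay inside the KO range, so its label may be wrong and it is referred to as the library labelled WT replicate 2. Fold changes between the groups depend on that label, and members whose fold change moves by over 1.5 times without this library are given with and without it. That library had 0.0209 CPM of Xist, against 243.7 to 401 CPM in KO libraries and 355 and 508 CPM in the others labelled WT. The Y-linked gene Ddx3y stood at 0.141, 22.9 and 90.2 CPM in KO libraries and 0.0354, 226 and 23.3 CPM in WT libraries, so KO replicates 2 and 3 and WT replicate 3 held RNA of both Xist and Ddx3y. The sex of the cells thus differed between libraries and was not balanced between the groups. Sex-linked levels do not tell whether Opa1 was deleted. The fits had no term for sex, and its part in the differences between KO and WT was not tested. The 8 muscle stem cell markers were detected in every library, with Pax7 at 325 to 453 CPM in KO and 252 to 398 CPM in WT. Of 9 leukocyte markers, which include cells that make oncostatin M, 4 were detected in every library. The summed level of the 9 was 14.9 to 37.5 CPM in KO libraries and 12.1 to 27.7 CPM in WT libraries. Ptprc, the gene of the CD45 antigen, was at 0 in some libraries. Pecam1, the gene of CD31, and Ly6a, the gene of Sca1, were detected in every library, at 4.36 to 22.5 CPM and 4.62 to 19.2 CPM. Mature fibre markers summed to 280 to 471 CPM in KO and 279.6 to 619 CPM in WT libraries. Erythroid markers summed to 32.99 to 257 CPM in KO and 99.1 to 422 CPM in WT libraries. The part of such cells in the levels of the members was not tested.

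No member passed the test, and neither did Opa1, the deleted gene itself (log2 fold change -1.09, edgeR, adjusted p = 0.99998). EdgeR's quasi-likelihood test called 0 of the 9 at an adjusted p under 0.05, where the share of all 18832 genes called was 0%, and the adjusted p of every member was 0.99998 in edgeR. At an unadjusted p under 0.05 there were 0 members, against 393 genes or 2.09% of all genes (1.08% higher and 1% lower in KO). DESeq2 called 20 genes, or 0.106%, and limma voom called 0; 0 members were called by either. The KO and WT libraries did not overlap for 1 of the 9 members, Jak1, where the share over all tested genes was 6.55% (3.43% with KO above WT and 3.12% with KO below). Log2 fold changes (KO minus WT) were positive for 6 members and negative for 3, with a median of 0.18, while the median over all tested genes was 0.01 and 51% of them were positive. In bulk RNA, fewer cells that express a gene and less RNA per cell cannot be told apart.

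**Figure D1:**
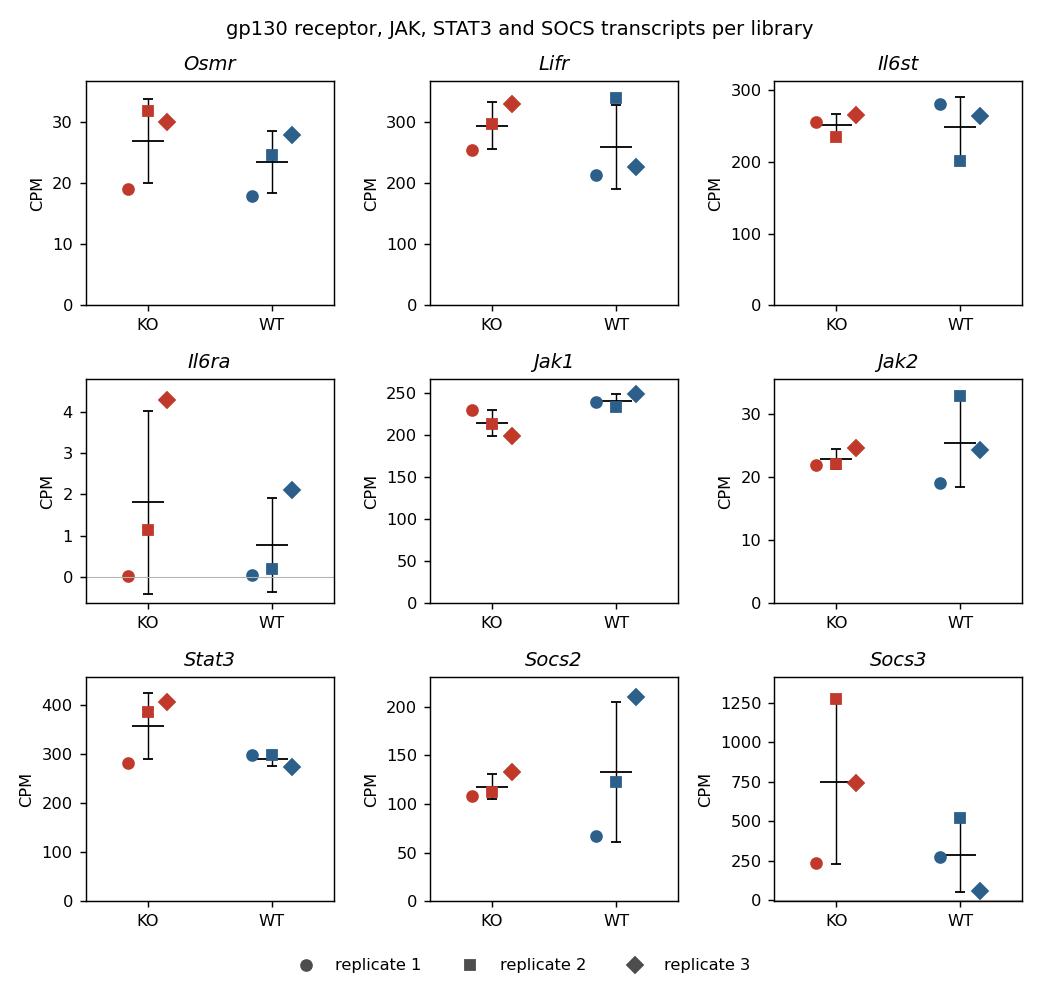
Level of each of the 9 members (CPM, linear axes) with KO left of WT; symbols are single libraries by replicate number, and horizontal lines with bars are the group mean ± SD (n = 3 each). Jak1 had its 3 KO points at 199 to 230.1 CPM, under the 3 WT points at 233 to 249 CPM, whereas the groups overlapped for the other 8 members.

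Levels of different genes were compared as CPM per kilobase of merged exons, averaged over the 6 libraries. Merged exons take in every annotated transcript of a gene, from 2891 bases for Socs3 to 12113 bases for Osmr. Levels per length, and the order of genes, therefore depend on the annotated transcripts. Socs3 stood first at 179 CPM per kb, with a range of 20.3 to 439.7 and an SD of 152. Stat3 followed at 34.0 ± 5.95 CPM per kb, Jak1 at 31.4 ± 2.53, Lifr at 25.7 ± 4.93, Il6st at 22.6 ± 2.56 and Socs2 at 13.2 ± 4.93 CPM per kb (SD, n = 6). Neighbours from Socs3 down to Socs2 had overlapping ranges, so the order of adjacent genes was not separated by the spread between libraries. Some genes further apart were separated. In CPM per kb, Stat3 (28.7 to 42.6) and Jak1 (27.5 to 34.4) lay above Il6st (18.1 to 25.3) and Socs2 (7.04 to 22.0). Jak2 at 4.79 ± 0.933, Osmr at 2.08 ± 0.476 and Il6ra at 0.150 ± 0.193 CPM per kb (SD, n = 6) had ranges that overlapped neither with each other nor with that of Socs2. In these cells the shared subunit gp130 and the LIF receptor were thus higher per length than the oncostatin M receptor, and the IL-6 receptor alpha chain was the lowest of the 4 receptor genes.

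**Figure D2:**
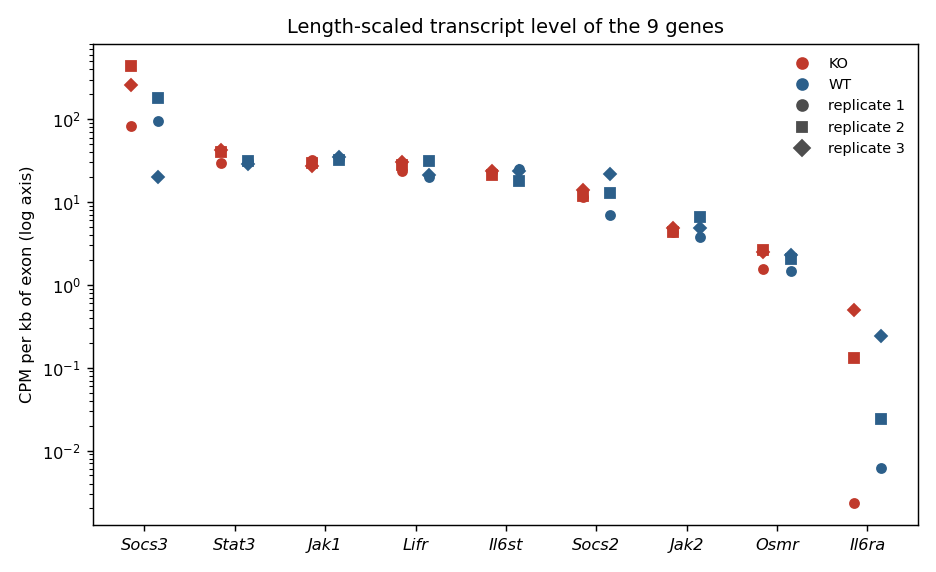
CPM per kilobase of merged exons (log axis) for each member, ordered by the mean over 6 libraries; points are single libraries, with KO in red left of WT in blue. Socs3 was first with a mean of 179 CPM per kb and Il6ra last with 0.150 CPM per kb, and both genes had widely scattered points.

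The members also differed in how far single libraries lay apart. The SD of log2 CPM over the 6 libraries was 0.12 for Jak1, and 3.51% of tested genes had a smaller one. It was 0.17 for Il6st (12.0% of genes smaller), 0.24 for Stat3, 0.26 for Jak2, 0.28 for Lifr and 0.35 for Osmr, all below the median SD of 0.41 over all tested genes. Above that median were Socs2 at 0.53, Socs3 at 1.55 (89.4% of genes smaller) and Il6ra at 2.53 (98.8% of genes smaller). Among the members, genes of the receptors, other than Il6ra, and of the kinases and Stat3 thus had smaller SDs between libraries than Socs2 and Socs3. This did not hold for their classes at large. Outside the members, the SD was 0.15 for the SOCS gene Socs4, 0.60 for the kinase gene Tyk2 and 1.28 for the receptor gene Cntfr.

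Among the receptors, Osmr encodes the subunit that gives the gp130 complex its response to oncostatin M and lies at chr15:6813577-6874969 on the minus strand (GRCm38, ENSMUSG00000022146.12). Osmr was at 19.0, 31.9 and 30.0 CPM in KO libraries and 17.9, 24.6 and 27.9 CPM in WT libraries. The first library of each group was the lowest, and the groups overlapped. The means were 27.0 ± 6.93 CPM in KO and 23.5 ± 5.09 CPM in WT (SD, n = 3 each), a log2 fold change of 0.20 (95% interval -0.44 to 0.84, SE 0.27). Leaving out 1 library moved this value between 0.04, without WT replicate 1, and 0.40, without KO replicate 1.

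Lifr encodes the subunit that pairs with gp130 for leukaemia inhibitory factor and lies near Osmr at chr15:7090614-7197489 on the plus strand (ENSMUSG00000054263.12). Its level was 253, 297 and 329.8 CPM in KO libraries and 214, 339 and 227 CPM in WT libraries. The highest value belonged to the library labelled WT replicate 2, above every KO library, while the other WT libraries lay below all KO libraries. The means were 294 ± 38.3 CPM in KO and 259.7 ± 68.7 CPM in WT (SD, n = 3 each). All 6 libraries together gave a log2 fold change of 0.18 (95% interval -0.32 to 0.67, SE 0.21). With the library labelled WT replicate 2 left out, it was 0.41 (edgeR, adjusted p = 0.9999), and without WT replicate 1 it was 0.05.

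Il6st, at chr13:112464070-112510086 on the plus strand (ENSMUSG00000021756.12), was close to level across the groups. It had 256, 235 and 265 CPM in KO libraries and 281, 201 and 265 CPM in WT libraries. All KO values lay inside the WT range, and the means were 252 ± 15.5 CPM in KO and 249 ± 42.1 CPM in WT (SD, n = 3 each). The log2 fold change was 0.02 with a 95% interval of -0.35 to 0.39 (SE 0.16), and it was -0.11 without the library labelled WT replicate 2.

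Il6ra encodes the IL-6 binding chain, which makes a cell directly responsive to IL-6, and lies at chr3:89864059-89913196 on the minus strand (ENSMUSG00000027947.11). Its raw counts were 1, 47 and 243 in KO libraries and 3, 10 and 112 in WT libraries, or 0.0201, 1.13 and 4.28 CPM in KO and 0.0530, 0.209 and 2.09 CPM in WT. In each group replicate 1 was lowest and replicate 3 highest, and the groups overlapped. The log2 fold change of 1.20 had an SE of 1.68 and a 95% interval of -2.77 to 5.18. It was -0.45 without KO replicate 3, 0.76 with the library labelled WT replicate 2 left out and 3.78 without WT replicate 3, so the direction rested on single libraries. An antisense gene, Gm42809, overlaps 242 bases (2.8%) of its exons, and the strand setting of the counting is not given in the sources used here.

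Jak1 encodes a kinase bound to gp130 and needed by most receptors of this family, and lies at chr4:101152367-101265282 on the minus strand (ENSMUSG00000028530.14). It was at 230.1, 213 and 199 CPM in KO libraries and 239.6, 233 and 249 CPM in WT libraries. All KO values lay below all WT values, including that of the library labelled WT replicate 2, as in 3.12% of tested genes. The means were 214 ± 15.5 CPM in KO and 241 ± 7.72 CPM in WT (SD, n = 3 each). This gave a log2 fold change of -0.17 (95% interval -0.45 to 0.11, SE 0.12) that stayed between -0.23 and -0.12 with 1 library left out. The difference did not pass edgeR's test.

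Jak2, a second kinase of these receptors that also serves growth hormone and other hormone-type cytokine receptors, lies at chr19:29251828-29313080 on the plus strand (ENSMUSG00000024789.13). It had 21.9, 22.0 and 24.6 CPM in KO libraries and 19.0, 32.8 and 24.2 CPM in WT libraries. The lowest and the highest value were both in WT, the highest in the library labelled WT replicate 2. The means were 22.8 ± 1.55 CPM in KO and 25.3 ± 6.93 CPM in WT (SD, n = 3 each). The fit gave a log2 fold change of -0.15 (95% interval -0.70 to 0.40, SE 0.23) that turned to 0.08 without that library.

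Stat3 encodes the transcription factor that these receptors activate and lies at chr11:100885098-100939540 on the minus strand (ENSMUSG00000004040.16). It stood at 282, 386 and 406 CPM in KO libraries and 299.5, 298 and 274 CPM in WT libraries. KO replicates 2 and 3 lay above every WT library, while KO replicate 1 lay inside the WT range. The means were 358 ± 66.5 CPM in KO and 291 ± 14.6 CPM in WT (SD, n = 3 each), with a log2 fold change of 0.30 (95% interval -0.09 to 0.69, SE 0.16). It was 0.45 with KO replicate 1 left out (edgeR, adjusted p = 0.9998), and 0.20 with KO replicate 3 left out. Its exons share 72 bases (0.76%) with Stat5a on the opposite strand. STAT3 acts through phosphorylation, which RNA counts do not measure.

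**Figure D3:**
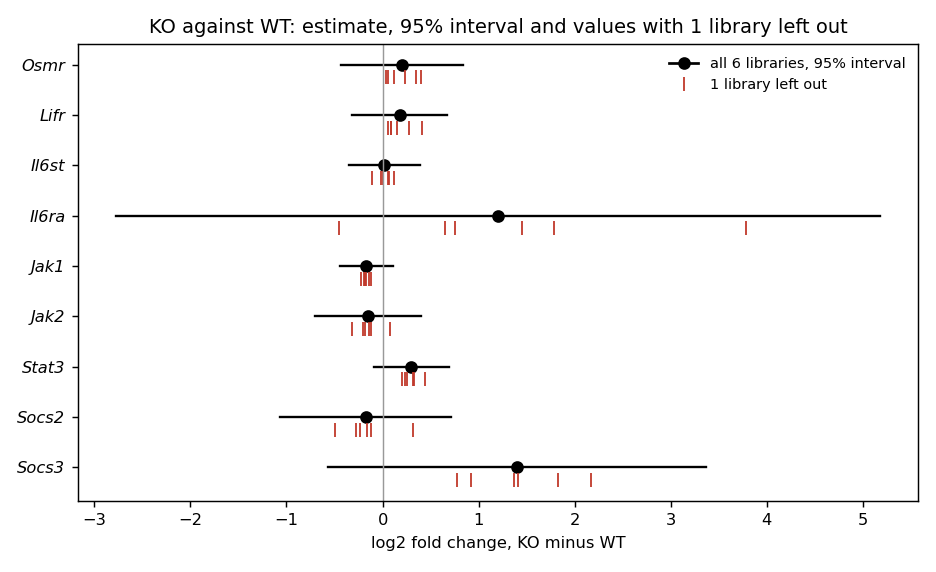
Log2 fold change (KO minus WT) of the 9 members from edgeR, as black points with 95% intervals for all 6 libraries, and as red ticks for the 6 fits that left out 1 library each. Every interval includes 0, and the ticks of Socs3 run from 0.77 to 2.17 and those of Il6ra from -0.45 to 3.78.

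Socs2 encodes an inhibitor best known for restraining growth hormone signals and lies at chr10:95385362-95417180 on the minus strand (ENSMUSG00000020027.18). Its values were 108, 113 and 133 CPM in KO libraries and 67.1, 122 and 209.9 CPM in WT libraries. The KO libraries lay close together and inside the wide WT range. The means were 118 ± 13.2 CPM in KO and 133 ± 72.0 CPM in WT (SD, n = 3 each), with a log2 fold change of -0.18 (95% interval -1.06 to 0.71, SE 0.38). It was 0.32 without WT replicate 3, -0.12 without KO replicate 1 and -0.49 without WT replicate 1.

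Socs3, the feedback inhibitor that STAT3 itself switches on, lies at chr11:117966079-117970047 on the minus strand (ENSMUSG00000053113.3). It had 11761, 52720 and 42045 raw counts in KO libraries and 15475, 24918 and 3131 raw counts in WT libraries, or 236, 1271 and 741 CPM in KO and 274, 520.2 and 58.6 CPM in WT. KO replicates 2 and 3 lay above every WT library, WT replicate 3 lay below every other library, and KO replicate 1 lay inside the WT range. The highest value was 5.38-fold the lowest within KO and 8.88-fold the lowest within WT, and 21.7-fold over all 6 libraries.

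The Socs3 means were 749 ± 518 CPM in KO and 284 ± 231 CPM in WT (SD, n = 3 each). The log2 fold change of 1.40 had the widest interval of the well-expressed members, -0.57 to 3.36 (SE 0.83). It was 0.77 without KO replicate 2, 0.92 without WT replicate 3 and 2.17 with the library labelled WT replicate 2 left out. The size of the Socs3 difference therefore depended on which library was kept, while its sign was positive in each of the 6 fits that left out 1 library.

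Promoter windows of Socs3 and Jak1 are printed because these were the well-expressed members with the widest and the narrowest spread between libraries. They come from RefSeq on GRCm38.p6 and run from 250 bases before to 50 bases after an annotated start. The Socs3 window covers chr11:117969317-117969616 on the minus strand, and its capitals mark the single match to TTCNNNGAA, the letters that STAT factors bind, 154 bases before the window's start site. The Jak1 window covers chr4:101265174-101265473 on the minus strand, and its capitals mark the single match to TGACGTCA, the letters bound by CREB and ATF factors, 101 bases before the start site.
Socs3: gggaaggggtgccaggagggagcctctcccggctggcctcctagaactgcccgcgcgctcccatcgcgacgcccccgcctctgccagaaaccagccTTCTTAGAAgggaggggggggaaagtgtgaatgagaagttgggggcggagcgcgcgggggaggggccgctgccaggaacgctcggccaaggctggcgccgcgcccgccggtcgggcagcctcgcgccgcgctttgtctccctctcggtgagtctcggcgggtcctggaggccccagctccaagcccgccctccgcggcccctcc
Jak1: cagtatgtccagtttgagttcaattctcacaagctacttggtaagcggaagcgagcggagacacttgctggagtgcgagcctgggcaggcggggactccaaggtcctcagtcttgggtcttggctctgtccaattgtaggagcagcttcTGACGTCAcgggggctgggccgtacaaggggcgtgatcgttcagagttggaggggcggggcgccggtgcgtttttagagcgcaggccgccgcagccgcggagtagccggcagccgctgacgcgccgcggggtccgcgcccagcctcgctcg
The start site in the Socs3 window lies 180 bases upstream of the start of the protein-coding transcript Socs3-201 in GENCODE M21, and that in the Jak1 window 59 bases downstream of the start of Jak1-201. Windows were found for 8 of the 9 members, and both strands were searched for 3 motifs. TTCNNNGAA was found in Socs3 and in no other member's window, where 8.3% of all 32851 promoter windows of this length hold it. TGACGTCA was found in Jak1 alone, against 1.79% of all windows. TGANTCA, which AP-1 factors bind, was found in Osmr alone, as TGATTCA 3 bases after the window's start site, against 7.81% of all windows. That start site lies 656 bases downstream of the start of the protein-coding transcripts Osmr-201 and Osmr-204. These matches describe letters and not binding.

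For the 3 members with the largest spread, the genes with the most similar profile over libraries were sought by the mean absolute difference in log2 CPM after each gene was centred on its own mean over 6 libraries. Of 11110 genes compared, the closest to Socs3 were Csrnp1 at 0.19, Junb at 0.21 and Ier3 at 0.23. Csrnp1 had 6.28, 48.2 and 24.8 CPM in KO libraries and 10.6, 22.2 and 1.81 CPM in WT libraries. Junb, a subunit of AP-1 that is also on the list of known STAT3 targets examined below, had 1539, 5452 and 4056 CPM in KO libraries and 1956, 3223 and 419 CPM in WT libraries. In all 3 genes, as in Socs3, KO replicate 2 was highest and WT replicate 3 lowest. The genes were picked for likeness over these same libraries, so this sharing follows from the selection and is no separate result.

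Immediate early genes such as Fos respond within minutes to a stimulus and are known to respond to tissue dissociation. The summed level of 11 of them was 12913, 35999 and 33885 CPM in KO libraries and 15630.5, 31233 and 6295 CPM in WT libraries, and all 11 genes were detected in every library. All 11 had positive log2 fold changes, with a median of 0.71, or 1.60 without the library labelled WT replicate 2, and a median of 0.01 over all tested genes. With 1 library left out, Dusp1 was at -0.04 in 1 fit. By edgeR 0 of the 11 were called, and 0 had groups that did not overlap. Fos stood at 2970.1, 8189 and 7987 CPM in KO libraries and 3439.8, 7266 and 1365 CPM in WT libraries. Like Socs3, the sum was low in replicate 1 of both groups and lowest in WT replicate 3. The part of this list in the Socs3 values was not tested.

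**Figure D4:**
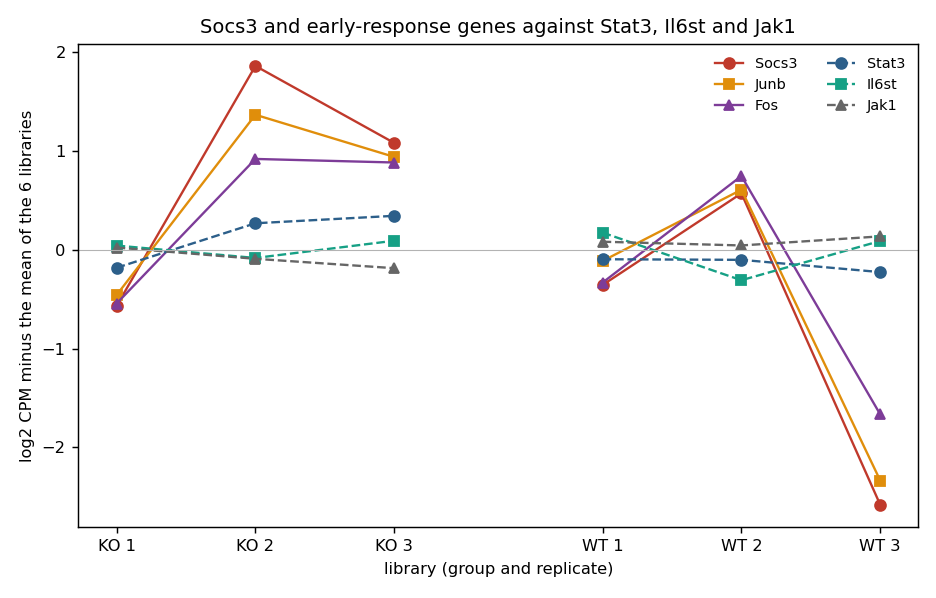
Log2 CPM minus the mean over the 6 libraries for Socs3, Junb and Fos (solid lines) and for Stat3, Il6st and Jak1 (dashed lines), with KO libraries left of WT libraries. The solid lines lie below their mean in replicate 1 of both groups and are lowest in WT replicate 3, where Socs3 had 58.6 CPM, while the dashed lines stay near 0.

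For Socs2 the closest profiles belonged to Plekhf1 at 0.09, Irf2bp2 at 0.10 and Rfxap at 0.12. For Il6ra they belonged to Fam180a at 0.52, Zbtb16 at 1.05 and Slc15a2 at 1.12, over 11111 genes. Il6ra had no profile as close as Socs3 or Socs2 had.

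Beside the members, 61 other genes of the pathway were examined in 5 lists: ligands and soluble partners, other receptors, other JAKs and STATs, inhibitors, and known STAT3 targets. Of these, 51 passed the filter on low counts and 0 were called by edgeR in either direction. There were 2 at an unadjusted p under 0.05 and 3 whose groups did not overlap, where the shares over all tested genes are 2.09% and 6.55%. Log2 fold changes were positive for 30 and negative for 21, with a median of 0.07. The genes named below are among the 3 with the smallest p in each list, with further ligands and targets added after their values were seen.

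Transcripts of oncostatin M, IL-6 and leukaemia inhibitory factor were scarce or not detected in the sorted cells. Osm, the gene of oncostatin M itself, had 0 counts in all 6 libraries, which allows up to 0.0528 to 0.0723 CPM in KO and 0.0530 to 0.0626 CPM in WT (3 counts per library, counting error only). Il27 had 0 counts in all 6 as well. Lif had 40, 0 and 38 raw counts in KO libraries and 130, 63 and 0 in WT libraries, and Il6 had 2, 21 and 12 in KO and 1, 0 and 14 in WT. Neither group was at 0 throughout for Lif or Il6, and both genes overlapped between the groups. Ctf1, the gene of cardiotrophin 1, was higher than these at 14.7, 13.9 and 7.36 CPM in KO libraries and 20.8, 4.61 and 4.32 CPM in WT libraries (log2 fold change 0.28, SE 0.66, or -0.07 without the library labelled WT replicate 2).

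Cntf, which encodes ciliary neurotrophic factor, was at 1.91, 2.22 and 3.10 CPM in KO libraries and 4.15, 5.91 and 4.38 CPM in WT libraries. All KO values lay below all WT values, with a log2 fold change of -0.997 (95% interval -1.88 to -0.12, SE 0.37). Its receptor alpha chain gene, Cntfr, stood at 0.843, 0.868 and 0.264 CPM in KO libraries and 1.79, 4.26 and 1.46 CPM in WT libraries. Here too KO lay below WT in every library, with a log2 fold change of -1.92 (95% interval -3.57 to -0.28, SE 0.70) and of -1.30 without the library labelled WT replicate 2. Both had an unadjusted p under 0.05 in edgeR, neither passed after adjustment (adjusted p = 0.99998), and Cntfr rested on 15 to 42 raw counts per KO library and 78 to 204 per WT library.

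Clcf1, the gene of a further cytokine of this family, had 4.30, 6.37 and 6.18 CPM in KO libraries and 3.48, 3.82 and 1.51 CPM in WT libraries, a log2 fold change of 0.93 (SE 0.45). All KO values of Clcf1 lay above all WT values, and it did not pass edgeR's adjusted threshold. Over the 8 ligand and partner genes tested, 3 log2 fold changes were positive and 5 negative, with a median of -0.25.

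Il11ra1, the alpha chain of the IL-11 receptor, was expressed at 308 to 584 CPM in KO libraries and 363 to 605 CPM in WT libraries, with a log2 fold change of -0.11 (SE 0.28, and -0.34 to 0.10 with 1 library left out). Per length it averaged 105 CPM per kb over the 6 libraries. It was thus the highest per length of the receptor genes examined.

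The 6 other JAK and STAT genes tested had positive log2 fold changes, with a median of 0.21, and 0 were called. Stat5b, a STAT of growth hormone and interleukin receptors, stood at 108, 124 and 112 CPM in KO libraries and 109.9, 103 and 75.2 CPM in WT libraries (log2 fold change 0.26, SE 0.17). Tyk2, a further JAK kinase of gp130 complexes, had 14.8, 22.7 and 20.6 CPM in KO libraries and 10.5, 8.29 and 20.7 CPM in WT libraries (0.56, SE 0.38, or 0.31 without the library labelled WT replicate 2). Stat6, the STAT of IL-4 signals, had a log2 fold change of 0.23 (SE 0.21), or 0.11 without that library. In each of these genes the groups overlapped.

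Of 13 tested inhibitors other than the 2 SOCS members, 5 had positive and 8 negative log2 fold changes, with a median of -0.08. The SOCS family gene Socs4 averaged 36.7 ± 2.01 CPM in KO and 32.5 ± 3.35 CPM in WT (SD, n = 3 each; log2 fold change 0.17, SE 0.16). Pias3, whose product binds STAT3 and blocks its DNA binding, had 0.28 (SE 0.28), and Socs7 had -0.21 (SE 0.25).

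Of 24 known STAT3 target genes 22 were tested, with 16 positive and 6 negative log2 fold changes, a median of 0.17 and 0 calls. Serpina3n, a secreted protease inhibitor, had 25, 172 and 143 raw counts in KO libraries and 4, 0 and 32 in WT libraries. KO replicate 1 lay below WT replicate 3, so the groups overlapped, with a log2 fold change of 3.40 (95% interval -0.09 to 6.89, SE 1.48). Mcl1, which encodes a survival protein of the BCL2 family, averaged 171 ± 23.6 CPM in KO and 136 ± 17.9 CPM in WT (SD, n = 3 each; log2 fold change 0.33, SE 0.16). Nnmt, a methyltransferase gene, had 5.72, 3.33 and 4.26 CPM in KO libraries and 4.17, 13.1 and 9.07 CPM in WT libraries (log2 fold change -0.98, SE 0.47), moving to -0.58 without the library labelled WT replicate 2.

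Targets differed in their spread between libraries. Myc, the growth regulator, varied 1.36-fold between its highest and lowest library and Bcl2l1, a survival gene, 1.42-fold, while Pim1 varied 5.48-fold and Ccnd1 8.84-fold. Pim1, a survival kinase gene, had 12.9, 70.6 and 68.4 CPM in KO libraries and 27.2, 34.1 and 24.4 CPM in WT libraries (log2 fold change 0.83, SE 0.57). Ccnd1, which encodes cyclin D1, had 800.0, 136 and 90.5 CPM in KO libraries and 681 CPM, 103 CPM and 133 CPM in WT libraries (0.16, SE 1.01), and its log2 fold change ran from -1.43 to 1.54 with 1 library left out. The first library of each group was high for Ccnd1. The sum of 10 cell cycle genes was 692.5, 107 and 88.0 CPM in KO and 327 CPM, 87.2 CPM and 286 CPM in WT. This sum was also highest in replicate 1 of each group, but WT replicate 3, low for Ccnd1, came near WT replicate 1. The part of cell cycle genes in these values was not tested. TTCNNNGAA stood in the promoter windows of 2 of the 20 targets that have one, Bcl6 and Steap4, where 8.3% of all windows hold it. A gene counted if any of its windows held the motif, whereas the share is per window. The count is thus no result about the targets. Bcl6 and Steap4 had log2 fold changes of -0.08 (SE 0.49) and 0.33 (SE 0.41). With 1 library left out these ran from -0.36 to 0.45 for Bcl6 and from -0.02 to 0.81 for Steap4.

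**Figure D5:**
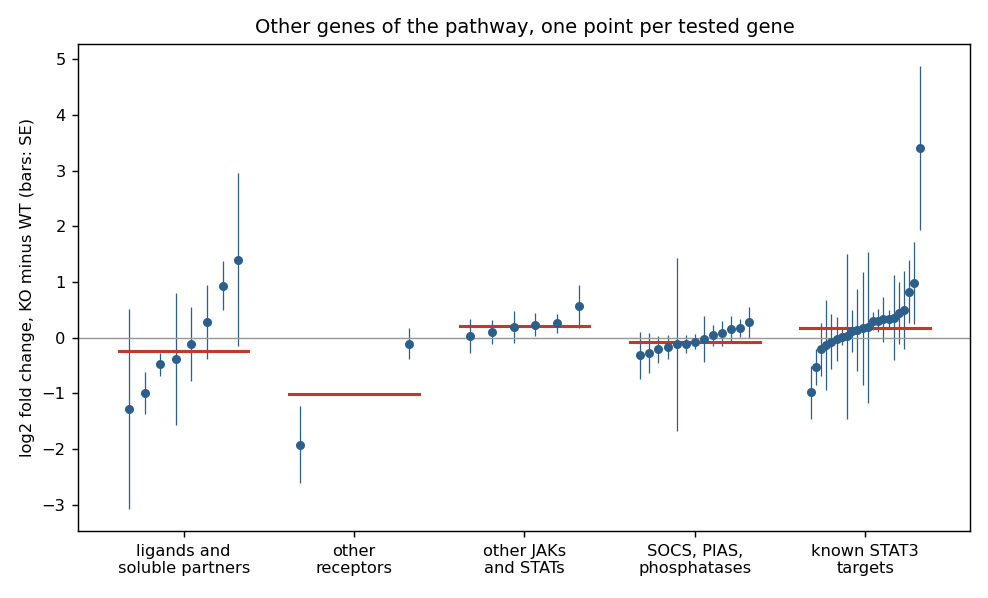
Log2 fold change (KO minus WT) of each tested gene of the 5 lists, with single genes as points with SE bars and list medians as red lines. Medians run from -1.02 for the 2 other receptors to 0.21 for the other JAKs and STATs, and 0 genes passed edgeR's adjusted threshold.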

How the data were processed

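Total RNA of 6 libraries of sorted muscle stem cells was analysed. The authors deposited 1 table of raw, whole-number counts per library. Per the submitters' processing notes, the build was GRCm38 and the tools were HTSeq 0.6.1p2, STAR 2.6.0c, DESeq2, edgeR, cutadapt 2.5 and Trim Galore 0.5.0. The sources used here do not name the annotation release or the strand setting. The 5 summary lines per table were not used; of all reads, those without a feature were 11.15% to 17.02%. Names, positions and exon lengths come from GENCODE M21 (49399 of 49652 IDs matched).

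KO and WT were compared with edgeR 4.0.16 in R 4.3.3: TMM scaling, the package's filter on low counts, robust quasi-likelihood test, Benjamini-Hochberg adjustment over 18832 genes and a threshold of 0.05. Each SE is the size of the log2 fold change over the root of its F value. Fold changes used a prior count of 0.125 and profiles one of 2. DESeq2 1.42.0, limma 3.58.1 voom, other scalings, no filter, a replicate block and leaving out each library were alternatives. On simulated counts with a dispersion of 0.05, 46% of genes changed 2-fold and 96% of those changed 4-fold were called, with 6 false calls among 18832 genes; the common biological coefficient of variation of the real libraries was 0.52, so these shares need not hold for them. Named genes are the 9 members and the 3 with the smallest p in each pathway list, of which 1 is not reported here; Pim1, Ccnd1, Myc, Bcl2l1, Lif, Il6, Ctf1, Osm, Il27, Bcl6 and Steap4 were added after their values were seen. The members and lists were chosen with earlier results of these data known.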

Additional observations from a re-analysis of the deposited data

How the results depend on the processing

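The count of members called and that of other pathway genes called were 0 under all 12 alternatives, and that of all genes was 0 under 11 of them and 20 with DESeq2. Osmr, Lifr, Stat3 and Socs3 kept positive and Jak1 and Opa1 negative log2 fold changes under all 12. Il6st turned to -0.0065 with no filter on low counts. With 1 library left out, ranges were -0.11 to 0.12 for Il6st (negative, at -0.02 and -0.11, without KO replicate 3 and the library labelled WT replicate 2), -0.45 to 3.78 for Il6ra, -0.32 to 0.0795 for Jak2 and -0.49 to 0.32 for Socs2. Likewise the median of the JAK and STAT3 members ranged from -0.17 to 0.0795, that of the other inhibitors from -0.11 to -0.0165, and that of ligands and partners from -0.43 to 0.07. The ligand median was 0.28 with limma voom. With a replicate block, the median of the other inhibitors was 0.0016, 0 genes were called and 515 had an unadjusted p under 0.05, against 393 without it. Deviations of same-numbered KO and WT libraries correlated at 0.245, 0.105 and -0.072, and KO replicate 3 went best with the library labelled WT replicate 2 at 0.207, so the numbers were not taken as pairs. In log2 CPM over all tested genes, KO replicate 1 correlated with WT replicate 1 at 0.957. Pairs of libraries within a group correlated at 0.911 to 0.937. The causes were not tested. With 3 libraries per group, the spread between libraries limits all members, and for Il6ra, Cntfr and the ligands low counts do too.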

Other observations

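Socs3 was also set against the immediate early genes within each library, a measure chosen after the values were seen and given without a test. Socs3 came to 1.83%, 3.53% and 2.19% of the summed level of the 11 immediate early genes in KO libraries and to 1.75%, 1.67% and 0.930% in WT libraries. The lowest KO value, 1.83% in KO replicate 1, lay just above the highest WT value, 1.75% in WT replicate 1. How often such a ratio parts the groups for other genes was not computed, and Socs3 CPM itself overlapped between the groups. Against Junb alone, Socs3 came to 15.3%, 23.3% and 18.3% in KO libraries and 14.0%, 16.1% and 14.0% in WT libraries, and here the groups overlapped, since KO replicate 1 lay below the library labelled WT replicate 2.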
